A study of Homo sapiens with 24 samples.

Results

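Translation initiation factors are the proteins that assemble a ribosome on the start codon of an mRNA. Their genes were taken from the deposited table by name: 60 rows had a symbol that starts with EIF and a digit from 1 to 6. The 4 EIF2AK kinases and 4 antisense or divergent transcripts were left out, no pseudogene was among the rows, and 52 protein-coding genes of the 19158 in the table remained. RNA came from ARP1, a human cell line of multiple myeloma, the cancer of plasma cells, grown in vitro for 24 h with LPA or with the vehicle PBS. LPA is read here as the signalling lipid lysophosphatidic acid, since the labels give the abbreviation alone, and the labelled dose of 4 mg/mL is high for a lipid in culture, so its unit is in doubt. Each treatment had 3 libraries, named PBS 1 to 3 and LPA 1 to 3, and each library was read in 4 lanes that were averaged and counted as 1 replicate. Both groups are the same line and differ by the labelled treatment; the labels do not tell whether its libraries are separate cultures, so p-values measure the spread between these libraries, which may be technical.

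Initiation begins when eIF1, eIF1A, eIF3 and eIF5 bind the small ribosomal subunit together with eIF2, a GTPase that carries the initiator methionyl-tRNA. The mRNA is brought in by eIF4F, made of the cap-binding protein eIF4E, the scaffold eIF4G and the RNA helicase eIF4A. The 4E-binding proteins hold eIF4E away from eIF4G unless the kinase mTOR phosphorylates them, and eIF2B recharges eIF2 with GTP unless eIF2 is phosphorylated by one of the EIF2AK kinases. Plasma cells, which make antibody in bulk, depend heavily on protein synthesis, and several of these factor genes are known targets of MYC.

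The libraries held between 5498910 and 5615625 reads with PBS and between 6941747 and 8740992 with LPA. PBS 2 differed from the other PBS libraries by more than these differed from each other, with chi-square values over their degrees of freedom of 3.66 and 3.74 against 1.33, and LPA 3 stood apart from the other LPA libraries with 2.39 and 2.81 against 1.35. The share of reads from nuclear protein-coding genes was 58.6% ± 2.02 with PBS and 65.4% ± 2.07 with LPA (SD, n = 3). Small nucleolar and Cajal body RNAs took 1.35% ± 0.271 and 0.852% ± 0.0278. Their part in the results was not tested. Over the 16274 genes tested the median log2 fold change of LPA over PBS was 0.13, so each result is given on FPM (reads scaled to the library total) and on rescaled FPM (divided by size factors from the median of ratios), where that median was 0.00. All 10 plasma cell markers checked were above 1 FPM, and their sum ranged from 1710 to 1873 FPM with PBS and from 2757 to 2937 FPM with LPA. JCHAIN made up the largest share of it, at 721 to 810 FPM with PBS and 1328 to 1425 FPM with LPA, while CD38, at 6.23 to 8.32 and 4.47 to 7.92 FPM, and SLAMF7, at 53.4 to 73.4 and 59.5 to 63.9 FPM, overlapped between the groups. The part of this in the results was not tested. Of 4 markers checked for each other cell type, 2 were listed for T cells and summed to at most 3.09 FPM, 3 for monocytes to 6.97, 3 for erythroid cells to 6.62, 3 for epithelial cells to 7.93 and 4 for fibroblasts to 28.7 FPM in any library.

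With LPA, 33 of the 50 tested initiation factor genes rose and 0 fell by limma on FPM at an adjusted p below 0.05, and 17 did not pass; at an unadjusted p below 0.05, 35 were higher and 1 lower. Over all tested genes, 22.5% were called higher and 4.49% lower, and among nuclear protein-coding genes 25.1% and 4.23%. These shares were not matched to the level of the members, and log2(FPM + 1) understates changes of low genes. The rises were small, with a median log2 fold change of 0.28 over the members against 0.14 over protein-coding genes, and the largest of them was 0.47. On rescaled FPM 15 members rose and 3 fell, against 9.62% and 9.45% of all tested genes and 10.9% and 9.7% of protein-coding genes. All 15 were also among the 33. By edgeR on recovered reads 15 were higher and 3 lower (background 9.59% and 9.4%), by DESeq2 10 and 3 (5.7% and 6.7%). Only 9 members were called higher on FPM, on rescaled FPM, by edgeR and by DESeq2 alike. With 1 prior variance in place of a trend, and the robust option also off, limma on FPM called 12 members higher and 0 lower. Of all tested genes it called 9.62% and 2.91%.

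The LPA libraries lay all above the PBS libraries for 38 members on FPM and 23 on rescaled FPM, against 31.4% and 16.6% of all tested genes. They lay all below for 1 and 5, against 7.42% and 17%. Together the 52 genes took 0.646%, 0.699% and 0.669% of the reads in PBS 1 to 3 and 0.777%, 0.768% and 0.811% in LPA 1 to 3. As a share of nuclear protein-coding reads they took 1.15% ± 0.0147 with PBS and 1.2% ± 0.00393 with LPA. The groups did not overlap in either share, and no test was run on them. In bulk RNA, more RNA per cell and more cells with such RNA cannot be told apart.

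**Figure D1:**
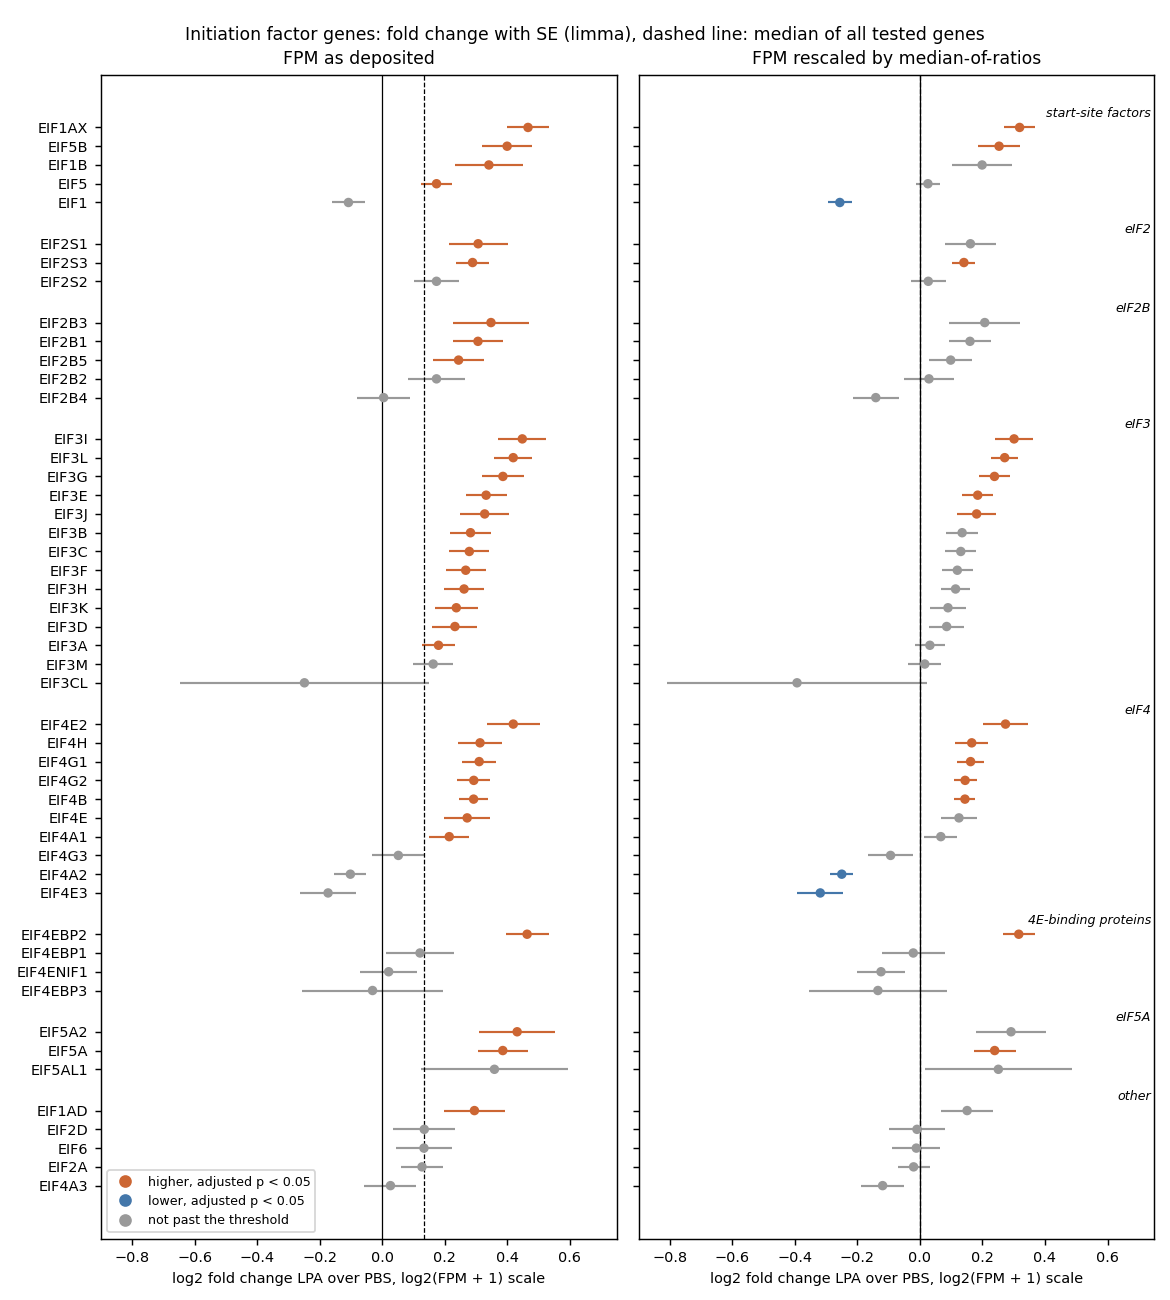
Log2 fold change of LPA over PBS (x axis, log2(FPM + 1) scale) with its SE for each tested initiation factor gene except EIF1AY, on deposited FPM (left) and on rescaled FPM (right), grouped by complex. Orange and blue mark genes past an adjusted p of 0.05 as higher and lower; the dashed line is the median of all tested genes, 0.13 on FPM. Most points lie right of that line, while EIF1, EIF4A2 and EIF4E3, the 3 genes called lower on rescaled FPM, lie left of 0 on both scales.

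For the start sites, RefSeq (GRCh38.p14) gave the 300 bases around the annotated start for 43 of the 51 members looked up. A pair of features was counted: the sequence CACGTG, a palindrome bound by MYC and related factors, anywhere in the window, and a start at C followed by at least 4 further pyrimidines on the transcript's strand, the form of the terminal oligopyrimidine (TOP) mRNAs whose translation mTOR controls. CACGTG was present in 11 of 43 member windows (25.6%), against 9.55% of 12377 windows of tested genes and 7.43% of all 27305 windows. The pyrimidine start was present in 10 of 43 (23.3%), against 5.01% and 4.04%. These are matches of letters in a window and no measure of binding.

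The start windows shown here run from 10 bases before the annotated start to 20 bases from it, with the pyrimidine run that opens the transcript in capitals. They show the most abundant factor genes of this form, EIF2S3, EIF4B and EIF4A2, then 3 eIF3 subunit genes, all called higher on FPM. EIF3M, which also has this form and was not called, is not shown. Last, for contrast, come the start sites without the run of the members with the largest rises, EIF1AX and EIF4EBP2.
EIF2S3 (chrX:24054946-24054975, plus strand): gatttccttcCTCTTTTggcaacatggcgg
EIF4B (chr12:53006446-53006475, plus strand): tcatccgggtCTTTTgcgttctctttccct
EIF4A2 (chr3:186783567-186783596, plus strand): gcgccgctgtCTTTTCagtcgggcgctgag
EIF3D (chr22:36529147-36529176, minus strand): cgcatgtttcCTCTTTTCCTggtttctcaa
EIF3F (chr11:7987327-7987356, plus strand): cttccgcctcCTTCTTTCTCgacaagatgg
EIF3K (chr19:38619178-38619207, plus strand): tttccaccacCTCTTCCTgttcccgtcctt
EIF1AX (chrX:20141819-20141848, minus strand): gagtcgcggcgccatttgctgccgccgagc
EIF4EBP2 (chr10:70404135-70404164, plus strand): gccttcgcccgcttccggtcgtcgtcgtcg

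The CACGTG matches of 4 of the 11 members are shown with 7 bases on each side, the match in capitals, and the distance of its first base from the start. All 4 were called higher on FPM. Among those not shown are EIF4A3 and EIF4EBP3, which have a match and were not called. EIF4E, EIF4G1 and EIF5A2 each had a pair of matches.
EIF4B, -22 (chr12:53006427-53006446, plus strand): ctataatCACGTGattgcct
EIF4E, -225 (chr4:98929346-98929365, minus strand): catcggcCACGTGaccagtc
EIF4E, -72 (chr4:98929193-98929212, minus strand): tatccgtCACGTGgccagaa
EIF4G1, -144 (chr3:184314455-184314474, plus strand): tggctgtCACGTGacggggc
EIF4G1, -67 (chr3:184314532-184314551, plus strand): cgccggtCACGTGggggcgc
EIF5A2, -187 (chr3:170908812-170908831, minus strand): tccgcagCACGTGgggttgc
EIF5A2, -162 (chr3:170908787-170908806, minus strand): cgctcttCACGTGactgggc

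Members with and without each feature responded as follows. Of 11 tested members with CACGTG, 9 rose on FPM and 3 on rescaled FPM (background 22.5% and 9.62%), and of 30 without it 18 and 9 did. The median log2 fold changes on FPM were 0.29 and 0.26. Of 9 with the pyrimidine start, 5 rose on FPM and 2 on rescaled FPM, and of 32 without it 22 and 10, with medians of 0.23 and 0.29 on FPM. These differences were not tested.

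Among the factors that set the start codon, eIF1A and EIF5B genes rose while EIF1 did not. EIF1AX encodes eIF1A, which keeps the subunit open for scanning and helps to fix the start codon. It measured 112, 126 and 117 FPM in PBS 1 to 3 and 166, 153 and 173 FPM in LPA 1 to 3. Every LPA library was above every PBS library, and the log2 fold change of 0.47 was the highest of the members (SE 0.07, limma adjusted p = 3.45e-07; 0.32 on rescaled FPM, adjusted p = 1.25e-05). EIF5B, the GTPase that joins the large ribosomal subunit, measured 56.8, 67.3 and 60.3 FPM in PBS 1 to 3 and 81.2, 84.6 and 78 FPM in LPA 1 to 3, again without overlap, and rose by 0.40 (limma adjusted p = 9.85e-05). It also passed on rescaled FPM, at 0.25, but not there without LPA 2. Of its exon bases, 852 are shared with REV1 on the opposite strand, at 35.1 to 42 FPM with PBS and 40.1 to 47.2 FPM with LPA.

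EIF1, which guards against initiation at wrong codons, did not rise. It measured 418, 433 and 436 FPM in PBS 1 to 3 and 392, 384 and 420.3 FPM in LPA 1 to 3, and the groups overlapped only through LPA 3, which exceeded PBS 1. On FPM its log2 fold change was -0.11 and did not pass (limma adjusted p = 0.119), except without LPA 3, where it was -0.15 (adjusted p = 0.0441). On rescaled FPM the values were 452, 436 and 468 with PBS and 378, 375 and 382 with LPA, with no overlap, and EIF1 was called lower at -0.26 (limma adjusted p = 5.92e-06). edgeR and DESeq2 called it lower as well. Its paralogue EIF1B was at 20.2 ± 0.226 and 25.9 ± 1.37 FPM and rose on FPM only (0.34, limma adjusted p = 0.0136), a call that was lost without LPA 3; 15 of its exon bases are shared with the antisense EIF1B-AS1, which was more abundant in reads. EIF5, the GTPase-activating partner of eIF2, rose from 393 ± 4.28 to 443 ± 11.4 FPM (0.17, limma adjusted p = 0.00754) and was at 0.03 on rescaled FPM, with the call on FPM lost without PBS 3. In all, 5 of 6 genes of this group rose on FPM, against 22.5% of all tested genes. On rescaled FPM 2 rose and 1 fell, against 9.62% and 9.45%. The Y-linked EIF1AY is in these counts and its values are not given.

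The genes of eIF2, which delivers the initiator tRNA, and of its exchange factor eIF2B rose on FPM in part. EIF2S3, the gamma subunit that binds GTP and the tRNA, measured 514, 611 and 546 FPM in PBS 1 to 3 and 670.0, 655 and 713 FPM in LPA 1 to 3. No LPA library fell into the PBS range, and it rose by 0.29 (SE 0.05, limma adjusted p = 3.63e-05; 0.14 on rescaled FPM, adjusted p = 0.00582). On rescaled FPM the call was lost without PBS 1, and edgeR did not call it (adjusted p = 0.0569). EIF2S1, the alpha subunit that the EIF2AK kinases phosphorylate, went from 40.1 ± 5.32 to 49.7 ± 4.33 FPM (0.31, limma adjusted p = 0.0115; not called on rescaled FPM, nor on FPM without PBS 1, LPA 1 or LPA 3). The beta subunit EIF2S2 was at 84.1 ± 2.42 and 94.9 ± 0.258 FPM and did not pass (limma adjusted p = 0.065), although all LPA libraries exceeded all PBS libraries. EIF2S3B, an intronless copy of EIF2S3, stayed under the filter at 0.78 ± 0.0971 and 0.788 ± 0.26 FPM.

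Of the 5 eIF2B subunit genes, 3 rose on FPM and 0 on rescaled FPM by limma (1 at an unadjusted p below 0.05, 0 by edgeR and 0 by DESeq2). Over all tested genes, limma called 22.5% higher on FPM and 9.62% on rescaled FPM. EIF2B1, the alpha subunit, rose from 55.3 ± 1.65 to 68.6 ± 2.64 FPM, EIF2B3, the gamma subunit, from 16.3 ± 2.5 to 20.9 ± 1.47 FPM, and EIF2B5, the catalytic epsilon subunit, from 50.3 ± 1.87 to 59.8 ± 3.22 FPM. The calls of EIF2B3 and EIF2B5 were lost in 4 and 3 of the 6 fits that left out 1 library. EIF2B2 went from 34.8 ± 1.08 to 39.4 ± 2.39 FPM and EIF2B4 from 50.7 ± 2.46 to 50.9 ± 0.522 FPM, and neither passed.

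The 4 kinases that phosphorylate eIF2 alpha, which the rule left out of the members, went in different directions. EIF2AK1 (HRI, the haem- and mitochondrial stress-responsive kinase) measured 79.6, 90 and 85.5 FPM with PBS and 111, 105 and 119 FPM with LPA and rose by 0.39 (limma adjusted p = 4.74e-05; 0.24 on rescaled FPM). EIF2AK4 (GCN2, the amino acid sensor) rose by 0.27 on FPM only. EIF2AK3 (PERK, the kinase of the endoplasmic reticulum) measured 137, 157 and 141 FPM with PBS and 104, 113 and 115 FPM with LPA and fell by 0.39 (limma adjusted p = 1.77e-05; -0.54 on rescaled FPM). EIF2AK2 (PKR, the interferon-induced sensor of double-stranded RNA) was at 218 ± 11 and 211 ± 6.22 FPM and was called lower on rescaled FPM only, at -0.19. PPP1R15A (GADD34), the stress-induced subunit of the phosphatase that reverses this phosphorylation, measured 81.9, 81.3 and 85 FPM with PBS and 51.6, 49.3 and 49.6 FPM with LPA, with wide separation, and fell by 0.71 (limma adjusted p = 4.94e-10; -0.86 on rescaled FPM).

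The genes of eIF3, the largest initiation factor, which binds the small subunit and recruits the mRNA, moved mostly in 1 direction on FPM. On that scale 12 of 14 rose, against 22.5% of all tested genes. All LPA libraries lay above all PBS libraries for 13, against 31.4% of all tested genes. On rescaled FPM 5 rose and 0 fell by limma, against 9.62% and 9.45% (0 lower at an unadjusted p below 0.05, 0 by edgeR and 0 by DESeq2). The 5 were EIF3I, EIF3L, EIF3G, EIF3E and EIF3J. EIF3I and EIF3G, which sit with EIF3B in the part of the complex that touches the mRNA entry side, measured 73, 83 and 75.1 FPM in PBS 1 to 3 and 99.3, 98.3 and 119.7 FPM in LPA 1 to 3, and 132, 148 and 129 FPM in PBS 1 to 3 and 165, 175 and 195 FPM in LPA 1 to 3. LPA 3 was the highest library for both. Their log2 fold changes were 0.45 (SE 0.08, limma adjusted p = 1.13e-05) and 0.39 (SE 0.07, limma adjusted p = 1.47e-05), and 0.30 and 0.24 on rescaled FPM. EIF3L, a subunit of the octamer core that yeast lacks, measured 198, 233 and 213 FPM in PBS 1 to 3 and 283, 275 and 301 FPM in LPA 1 to 3, with the groups well apart, and rose by 0.42 (limma adjusted p = 3.42e-07; 0.27 on rescaled FPM).

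EIF3E, also known as INT6, measured 122, 139 and 129 FPM in PBS 1 to 3 and 166, 162 and 163 FPM in LPA 1 to 3. Its LPA libraries were nearly level with each other, and it rose by 0.33 (limma adjusted p = 8.86e-05; 0.18 on rescaled FPM, adjusted p = 0.00734, lost without LPA 1). DESeq2 did not call EIF3E (adjusted p = 0.0556). EIF3J, a loosely bound subunit, measured 61.3, 69.6 and 58 FPM in PBS 1 to 3 and 78.7, 78 and 80.4 FPM in LPA 1 to 3 and rose by 0.33 (limma adjusted p = 0.00122). Its call on rescaled FPM held without PBS 2 and was lost without any other single library. DESeq2 did not call EIF3J (adjusted p = 0.202). The remaining calls on FPM were EIF3B at 0.28, EIF3C at 0.28, EIF3F at 0.27, EIF3H at 0.26, EIF3K at 0.24, EIF3D, which can itself bind the cap, at 0.23, and EIF3A, the scaffold subunit, at 0.18. EIF3D lost its call without PBS 1, PBS 3, LPA 2 or LPA 3 and EIF3A without LPA 1. EIF3M was at 133 ± 2.3 and 149 ± 3.85 FPM and did not pass (limma adjusted p = 0.0525). Within the complex the subunits thus spanned 0.16 to 0.45 on the log2 scale, leaving out EIF3CL; differences between subunits were not tested.

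EIF3CL is a near-identical copy of EIF3C, and the rule by which the authors assigned reads to such copies is not given in the sources used here. EIF3CL measured 53.2, 25.5 and 34.2 FPM in PBS 1 to 3 and 20.4, 39.3 and 33.9 FPM in LPA 1 to 3, with overlapping groups and the widest relative spread among members above 10 FPM, and EIF3C measured 178, 218 and 196 FPM in PBS 1 to 3 and 250.3, 222 and 244 FPM in LPA 1 to 3. EIF3CL took between 7.54% and 23% of the reads of the pair. The sum of both was steadier, at 231, 243 and 230.2 FPM with PBS and 271, 262 and 278 FPM with LPA, with no overlap. Values of either copy alone are therefore uncertain.

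**Figure D2:**
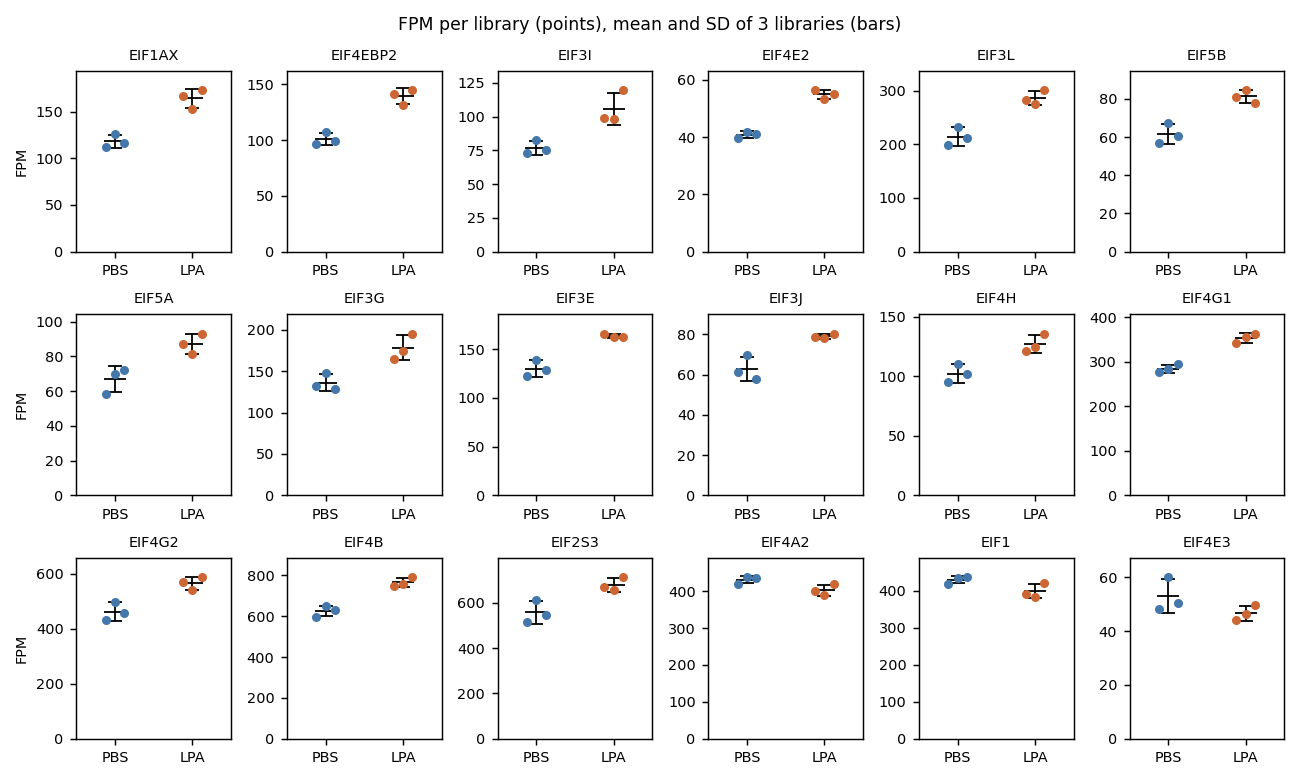
FPM in each library (points) with the mean and SD of 3 libraries (bars) for the 18 members past the threshold on rescaled FPM, ordered by fold change; each y axis starts at 0. In the 15 genes from EIF1AX to EIF2S3 all LPA points lie above all PBS points, while EIF4A2, EIF1 and EIF4E3, last, have LPA means below PBS.

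Most genes of the eIF4 group, which binds the cap and unwinds the mRNA, rose on FPM, and EIF4A2 and EIF4E3 were called lower on rescaled FPM. On FPM 7 of 10 tested genes rose and 0 fell by limma, against 22.5% and 4.49% of all tested genes. Of the 10, 0 were lower at an unadjusted p below 0.05, and edgeR and DESeq2 called 2 each lower. On rescaled FPM 5 rose and 2 fell, against 9.62% and 9.45%. EIF4B, an RNA-binding cofactor of the helicase and a target of the S6 kinases, measured 598, 649 and 628 FPM in PBS 1 to 3 and 746, 758 and 792 FPM in LPA 1 to 3. It rose by 0.29 (SE 0.05, limma adjusted p = 3.13e-06) and kept its call on rescaled FPM, at 0.14, whichever single library was left out. EIF4H, a related cofactor, measured 95.1, 110.3 and 101 FPM in PBS 1 to 3 and 121, 125 and 136 FPM in LPA 1 to 3 and rose by 0.31. On rescaled FPM its call was lost without PBS 1, LPA 2 or LPA 3, and DESeq2 did not call it (adjusted p = 0.147). The scaffold EIF4G1 measured 276, 284 and 294 FPM in PBS 1 to 3 and 342, 355 and 364 FPM in LPA 1 to 3, without overlap, and rose by 0.31 (limma adjusted p = 1.46e-05; 0.16 on rescaled FPM, lost without LPA 2). EIF4G2 (DAP5), a relative that lacks the eIF4E-binding site and serves cap-independent initiation, measured 432, 498 and 456 FPM in PBS 1 to 3 and 569, 541 and 587 FPM in LPA 1 to 3 and rose by 0.29 (limma adjusted p = 1.86e-05; 0.14 on rescaled FPM, lost without PBS 1 or LPA 1). EIF4G3, the other full-length scaffold, was at 46 ± 0.446 and 47.7 ± 0.888 FPM and did not pass (limma adjusted p = 0.711).

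Of the cap-binding genes, EIF4E and EIF4E2 rose on FPM, and differences between these genes were not tested. EIF4E, the cap-binding subunit of eIF4F and a target of MYC, measured 75.7, 88.1 and 78.4 FPM in PBS 1 to 3 and 97.8, 94.8 and 99.8 FPM in LPA 1 to 3; the groups did not overlap, and it rose by 0.27 on FPM (limma adjusted p = 0.00415) but did not pass on rescaled FPM (0.12, adjusted p = 0.132). EIF4E2 (4EHP), which binds the cap without eIF4G and takes part in translational repression, measured 39.6, 41.8 and 41.1 FPM in PBS 1 to 3 and 56.4, 53.3 and 55 FPM in LPA 1 to 3. Its groups were well apart, and it rose by 0.42 (limma adjusted p = 1.51e-04; 0.27 on rescaled FPM, lost without LPA 1). DESeq2 did not call EIF4E2 (adjusted p = 0.0575). In exon bases it overlaps TIGD1 on the opposite strand, which was at 82.4 to 105 FPM with PBS and 98.5 to 109 FPM with LPA. EIF4E3, another cap-binding relative, measured 48.2, 60.1 and 50.4 FPM in PBS 1 to 3 and 44.2, 46.2 and 49.5 FPM in LPA 1 to 3, with overlap, and was not called on FPM (-0.17, limma adjusted p = 0.148). On rescaled FPM it was 52.1, 60.5 and 54 with PBS and 42.6, 45.2 and 45 with LPA and was called lower at -0.32 (limma adjusted p = 0.00185). The germline relative EIF4E1B stayed under the filter, at 0.359 and 0.303 FPM.

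The paralogous helicase genes EIF4A1 and EIF4A2 had log2 fold changes of opposite sign on both scales. EIF4A1, the main helicase of eIF4F in growing cells, measured 138, 134 and 144 FPM in PBS 1 to 3 and 159, 162 and 162 FPM in LPA 1 to 3 and rose by 0.21 on FPM (limma adjusted p = 0.00863), while it was at 0.07 on rescaled FPM (adjusted p = 0.432). EIF4A2 measured 420.1, 438 and 437 FPM in PBS 1 to 3 and 399, 389 and 419 FPM in LPA 1 to 3. All its LPA libraries were below all PBS libraries, narrowly on FPM, where it did not pass (-0.10, limma adjusted p = 0.141), and more widely on rescaled FPM, where it was called lower at -0.25 (limma adjusted p = 6.96e-06). A ratio within a library does not depend on scaling. The ratio of EIF4A1 to EIF4A2 was 0.328, 0.305 and 0.33 in PBS 1 to 3 and 0.399, 0.416 and 0.386 in LPA 1 to 3. All 3 LPA ratios exceeded the PBS ratios, and the log2 difference was 0.32 (two-sided exact permutation test, p = 0.1, the smallest that 3 against 3 allows; 0.15 adjusted over 3 ratios). A ratio does not tell which of the genes changed.

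Both helicase genes carry small nucleolar RNAs in their introns, and GENCODE release 29 places 10 such RNAs inside members. Of the 9 that passed the filter all 9 were called lower on both scales, against 4.49% and 9.45% of all tested genes. On FPM all LPA libraries lay below all PBS libraries for each of the 9, against 7.42% of all tested genes. The most abundant, SNORA63 in EIF4A2, measured 701, 498 and 835 FPM in PBS 1 to 3 and 228, 197 and 212 FPM in LPA 1 to 3, and fell by 1.64 on the log2 scale (limma adjusted p = 0.00844). SNORA48 in EIF4A1 measured 118, 85.2 and 126 FPM with PBS and 44.5, 38.7 and 49.4 FPM with LPA and fell by 1.28. SNORD97 in EIF4G2 fell from 54.8 ± 12.1 to 29 ± 3.38 FPM and SNORA28 in EIF5 from 12 ± 0.817 to 6.34 ± 1.34 FPM, while both host genes rose. The log2 fold change of EIF4A2 was -0.10 on FPM, against -1.70 for SNORA63B and -1.05 for SNORA81, both inside it. PBS 2 had the lowest PBS value for 8 of the 9. Over the whole table, small nucleolar and Cajal body RNAs, these 9 included, took 1.35% of reads with PBS and 0.852% with LPA. Falls among snoRNAs outside the members were not counted, so whether a fall is particular to these hosts was not tested. Annotated exons of the hosts cover 8 of the 9, the counting rule is not known, and the part of snoRNA reads in the values of EIF4A1 and EIF4A2 was not tested.

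**Figure D3:**
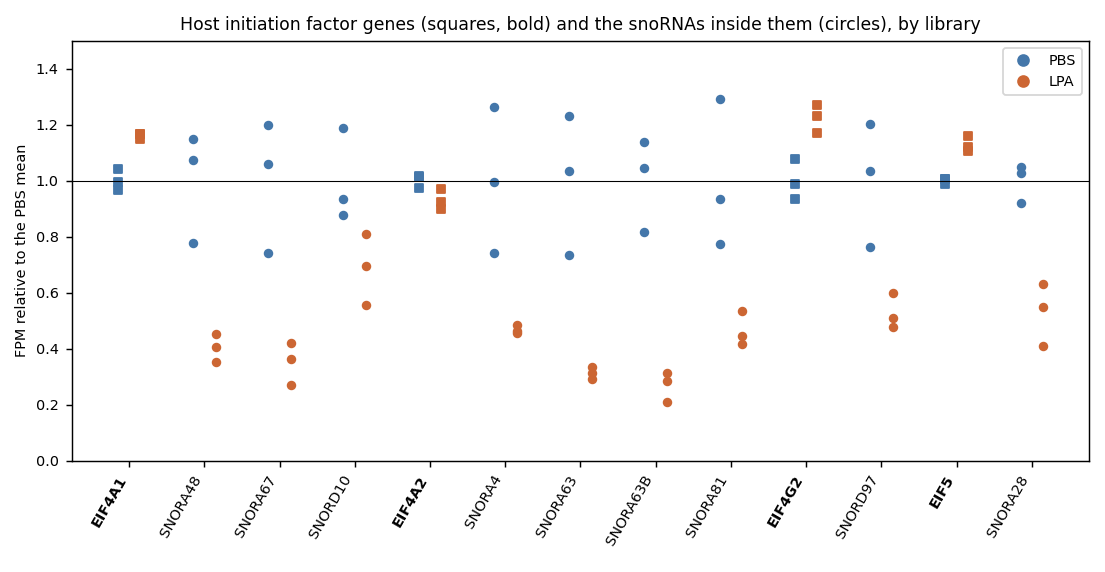
FPM relative to the PBS mean (y axis) in each library, for 4 host initiation factor genes (squares) and the 9 tested snoRNAs inside them (circles). The LPA circles lie below the PBS circles for each snoRNA, while the LPA squares of EIF4A1, EIF4G2 and EIF5 lie above 1 and those of EIF4A2 slightly below it.

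Of the 4E-binding proteins, which keep eIF4E from eIF4G, 1 of 4 genes was called higher on each scale. Of all tested genes, 22.5% were on FPM and 9.62% on rescaled FPM. The median log2 fold change of the 4 on FPM was 0.07, against 0.13 over all tested genes. EIF4EBP2 alone passed the test. It measured 96.5, 107 and 98.9 FPM in PBS 1 to 3 and 142, 132 and 145 FPM in LPA 1 to 3. The groups were far apart, and its log2 fold change of 0.46 was second among the members (SE 0.07, limma adjusted p = 6.49e-07; 0.32 on rescaled FPM, adjusted p = 2.36e-05). It was called on FPM and on rescaled FPM whichever single library was left out, and by edgeR and DESeq2. EIF4EBP1, the best-known member of the family, measured 22.6, 22.4 and 20.4 FPM in PBS 1 to 3 and 23.9, 25.1 and 22.3 FPM in LPA 1 to 3, with overlapping groups, and did not pass (0.12, SE 0.11, limma adjusted p = 0.451). EIF4EBP3 was low, at 2.52 ± 0.56 and 2.46 ± 0.63 FPM, and shares exons with the read-through gene ANKHD1-EIF4EBP3. EIF4ENIF1 (4E-T), which carries eIF4E to the nucleus and to P-bodies, was at 41.1 ± 2.12 and 41.7 ± 2.58 FPM and did not pass.

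The ratio of EIF4EBP1 to EIF4EBP2 was 0.234, 0.209 and 0.206 in PBS 1 to 3 and 0.169, 0.191 and 0.154 in LPA 1 to 3. All LPA ratios lay below all PBS ratios, with a log2 difference of -0.34 (exact permutation p = 0.1, 0.15 adjusted over 3 ratios). That of EIF4EBP1 to EIF4E was 0.299, 0.255 and 0.26 and 0.245, 0.265 and 0.224, with overlapping groups (exact permutation p = 0.3). Ratios compare reads and not molecules, since the transcripts differ in length.

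**Figure D4:**
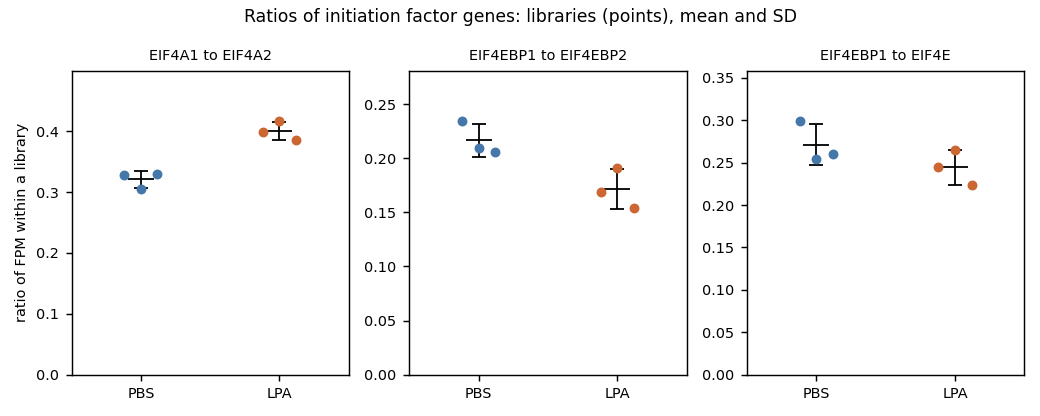
Ratio of FPM within each library (points) with the mean and SD of 3 libraries (bars) for 3 pairs of genes; y axes start at 0. The groups are separate for EIF4A1 to EIF4A2, higher with LPA, and for EIF4EBP1 to EIF4EBP2, lower with LPA, and overlap for EIF4EBP1 to EIF4E.

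EIF5A, which carries the modified residue hypusine and helps ribosomes through stalling sequences and termination, measured 58.2, 70 and 72.4 FPM in PBS 1 to 3 and 87.4, 81.7 and 93.2 FPM in LPA 1 to 3. PBS 1 was the lowest library, the groups did not overlap, and it rose by 0.39 (limma adjusted p = 2.10e-04; 0.24 on rescaled FPM, adjusted p = 0.01, lost without PBS 1 or LPA 1). DESeq2 did not call EIF5A (adjusted p = 0.069). EIF5A2, its paralogue, measured 13.9, 14.1 and 14.9 FPM in PBS 1 to 3 and 20.3, 18.5 and 20.2 FPM in LPA 1 to 3 and rose by 0.43 on FPM (SE 0.12, limma adjusted p = 0.00534), with 0.29 and an adjusted p of 0.0656 on rescaled FPM. The intronless copy EIF5AL1 was at 2.76 ± 1.52 and 3.67 ± 1.03 FPM and did not pass. Of the enzymes that make hypusine, DHPS was at 60 ± 4.02 and 55.8 ± 1.6 FPM and DOHH at 10.3 ± 1.04 and 10.9 ± 1.45 FPM. Neither passed on FPM, and DHPS was called lower on rescaled FPM at -0.25 (limma adjusted p = 0.0131).

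Of the 5 other members, EIF1AD alone passed, on FPM, where 22.5% of all tested genes were called higher. EIF6, which keeps the large subunit from joining too early, was at 40.5 ± 3.3 and 44.5 ± 0.299 FPM. EIF2A and EIF2D, which can deliver initiator tRNA without eIF2, were at 131 ± 10.2 and 143 ± 6.74 FPM and at 29.8 ± 2.53 and 32.7 ± 1.33 FPM. EIF4A3, a helicase of the exon junction complex rather than of initiation, was at 51.3 ± 0.838 and 52.3 ± 1.11 FPM, and none of these 4 passed. EIF1AD, named for a domain it shares with eIF1A, rose from 29 ± 1.81 to 35.8 ± 2.23 FPM on FPM only (0.29, limma adjusted p = 0.0186), and lost its call without PBS 1, PBS 3 or LPA 3.

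Levels can be compared between genes only per length. Scaled to the longest principal protein-coding transcript in GENCODE release 29, the PBS levels ran from 0.168 to 225 FPM per kb. EIF4A2 at 225 ± 5.31, EIF2S3 at 195 ± 17.3 and EIF1 at 184 ± 4.13 FPM per kb were highest, where EIF2S3 and EIF1 did not differ beyond their SD. With LPA the same genes were at 209.7 ± 8.13, 238 ± 10.5 and 171 ± 8.3 FPM per kb, and EIF2S3 stood first. EIF4A2 exceeded EIF4A1, at 79 ± 2.97 FPM per kb with PBS. The eIF3 subunits, present once each in the complex, ranged from 16.8 ± 0.504 for EIF3F to 123 ± 9.16 FPM per kb for EIF3G, leaving out EIF3CL. The lengths used for EIF3F and EIF3G were 7540 and 1103 bases, while their PBS means were closer, at 126 and 136 FPM. The distance between these genes thus rests mostly on the lengths chosen. With all annotated exons EIF3F is longer still, at 9431 bases. The eIF2 subunits, also 1 of each, leaving out EIF2S3B, ranged from 8.95 ± 1.19 for EIF2S1 to that of EIF2S3. EIF4E was at 7.0 ± 0.568 FPM per kb, below EIF4EBP1 at 21.4 ± 1.22 and EIF4EBP2 at 13.9 ± 0.762. The lengths used were 11523, 1020 and 7257 bases, in that order. Before scaling to length, EIF4E at 80.7 FPM with PBS exceeded EIF4EBP1 at 21.8 FPM and lay below EIF4EBP2 at 101 FPM. The order of EIF4E and EIF4EBP1 thus depends on the lengths chosen. These levels depend on the transcript chosen: with all annotated exons of a gene as its length, EIF2S3 led with PBS, followed by EIF1, EIF4B and then EIF4A2.

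**Figure D5:**
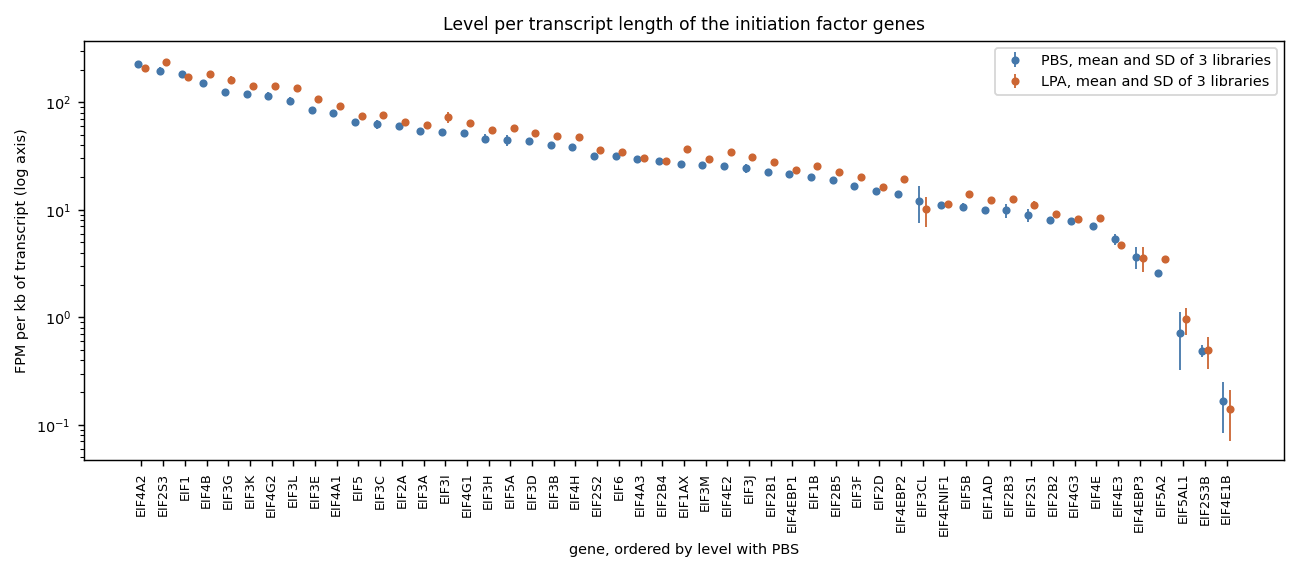
FPM per kb of transcript (y axis, log scale) of 51 initiation factor genes, ordered by the PBS level, as mean and SD of 3 libraries with PBS (blue) and LPA (orange). EIF4A2, EIF2S3 and EIF1 lead with PBS, and EIF5AL1, EIF2S3B and EIF4E1B are lowest; LPA points sit slightly above PBS points for most genes.

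Genes of proteins that work with these factors were counted the same way. Of 25 tested partner and regulator genes 13 rose, 3 fell and 9 did not pass on FPM (background 22.5% and 4.49%), and 7 rose and 5 fell on rescaled FPM (9.62% and 9.45%). PABPC1, the poly(A)-binding protein that joins the mRNA tail to eIF4G, measured 722, 748 and 723 FPM with PBS and 955, 959 and 949.9 FPM with LPA and rose by 0.38 (limma adjusted p = 1.42e-09; 0.24 on rescaled FPM). ABCE1, the ribosome recycling ATPase, measured 109, 139 and 124 FPM with PBS and 181, 165 and 174 FPM with LPA and rose by 0.48. BZW2, which imitates eIF5, measured 19.4, 17.5 and 16.4 FPM with PBS and 29.8, 27.8 and 31.7 FPM with LPA and rose by 0.71 (limma adjusted p = 1.29e-06). None of these had overlapping groups. Besides PPP1R15A, described with the eIF2 kinases, PDCD4, an inhibitor of eIF4A named after its value was seen, fell from 433 ± 10.8 to 346 ± 5.76 FPM (-0.32; -0.47 on rescaled FPM), and CYFIP1, which binds eIF4E and was also named after its value was seen, fell from 27 ± 1.28 to 20.8 ± 2.82 FPM.

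Of 15 tested genes of elongation and release, 6 rose and 1 fell on FPM (background 22.5% and 4.49%), and 5 and 1 on rescaled FPM (9.62% and 9.45%). EEF1B2, a subunit of the factor that recharges eEF1A, rose from 179 ± 8.62 to 243 ± 8.48 FPM, EEF1G of the same complex from 546 ± 21.6 to 665 ± 5.78 FPM, and GSPT1, the release factor eRF3a, from 127 ± 8.28 to 170.3 ± 3.79 FPM, on both scales. EEF1A1 itself, the carrier of aminoacyl-tRNA, rose by 0.19 on FPM (limma adjusted p = 2.25e-05) and was at 0.04 on rescaled FPM. PELO, a ribosome rescue factor named after its value was seen, fell, with a log2 fold change of -0.40. Of the mitochondrial initiation factors MTIF2 rose from 40.7 ± 0.611 to 53.7 ± 1.69 FPM on both scales and MTIF3, at 5.52 ± 0.809 and 5.23 ± 0.99 FPM, did not pass.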

How the data were processed

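The authors deposited 1 table of FPM (a CPM unit: each lane scaled to its own total) with 24 lane columns, and each value column was mapped to a sample by its title. No source used here names the aligner, counter, strand setting or rule for shared reads. Build mm10, a mouse genome, stands in the submitters' processing notes, but gene identifiers are human, so no coordinates were taken from the file. Values were whole multiples of 1 read in each lane (100% within 0.02 reads). The table held 19345 rows with a gene; 187 rows that repeated an identifier were dropped. No listed gene had under 10 reads over the 24 lanes. A single read was worth 0.114 to 0.182 FPM per library.

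Lanes were averaged. The 16274 genes that reached 1 FPM in 3 or more of the 6 libraries were fitted with limma 3.58.1 (trend, robust, two-sided) on log2(FPM + 1), which understates changes of low genes, with Benjamini-Hochberg adjustment over all of them at 0.05; 50 of the 52 members were tested. Alternatives were median-of-ratios and upper-quartile scaling, edgeR 4.0.16 and DESeq2 1.42.0 on recovered reads (edgeR called 1560 genes higher and 1529 lower), other pseudocounts and filters, a replicate block and leaving out libraries. Ratios used exact permutation tests. Every listed member is named; library values are given for members called on both scales, the 3 highest per length and the ratio genes, and of partner lists up to 4 with the smallest p; other genes named, or given with library values, were added after seeing the data. Members and lists were chosen with earlier results of these data known. Of the members, 22 share exon bases with another listed gene, 20 of them with one on the opposite strand, and their values are uncertain by that much. No promoter entry was found for EIF2S2, EIF3A, EIF3CL, EIF3E, EIF3G, EIF3H, EIF3L and EIF4EBP1.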

Additional observations from a re-analysis of the deposited data

How the results depend on the processing

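The scaling and the variance model set how many members passed. Higher members numbered 33 on FPM, 15 with median-of-ratios scaling, 14 with upper-quartile scaling, 12 with 1 prior variance, 15 by edgeR and 10 by DESeq2, and 27 to 37 without 1 library; higher eIF3 genes numbered 12, and then 5, 4, 3, 5 and 3, and 11 to 13. Lower members numbered 0 on FPM and 3 under each scaling, by edgeR and by DESeq2 (EIF1, EIF4A2 and EIF4E3), and 0 to 1 without 1 library. On rescaled FPM, fits without 1 library, chosen after seeing the data, called 10 to 17 members higher against 15. For upper-quartile scaling and for fits without 1 library, no share of all tested genes is given beside these counts. Scaling by library total leaves the median log2 fold change of all genes at 0.13, and median-of-ratios scaling sets it to 0.00; what else lowers the counts was not tested. No member past the threshold changed sign. Members not past it on FPM that changed sign had these log2 fold changes, FPM first, then median-of-ratios, upper-quartile, edgeR and DESeq2: EIF2D (0.13) at -0.010, -0.018, -0.0091 and -0.013, EIF6 (0.13) at -0.012, -0.020, -0.0084 and -0.013, EIF2A (0.13) at -0.020, -0.029, -0.017 and -0.022, EIF4EBP1 (0.12) at -0.021, -0.030, -0.015 and -0.020, EIF4G3 (0.05) at -0.094, -0.10, -0.090 and -0.095, EIF4A3 (0.03) at -0.12, -0.13, -0.12 and -0.12, EIF4ENIF1 (0.02) at -0.12, -0.13, -0.12 and -0.13, EIF2B4 (0.00) at -0.14, -0.15, -0.14 and -0.14. Without 1 library, EIF2B4 reached -0.017 to 0.044, EIF4ENIF1 -0.028 to 0.060, EIF4EBP3 -0.16 to 0.10 and EIF3CL -0.49 to 0.027. Over all single-gene comparisons with a test, 606 alternatives kept direction and side of the threshold, 116 lost and 19 gained a call, and 41 changed sign. Replicate numbers gave no sign of pairing (correlations of same-numbered libraries between -0.05 and -0.01), and with the replicate number as a block 33 members were higher. The 3 ratios kept their direction in every setting run. The replicate block returns the same difference by construction, and recovered reads nearly so, so these settings could not change it. Without 1 library, the log2 difference of EIF4EBP1 to EIF4E ran from -0.21 to -0.077. Counts without both PBS 2 and LPA 3 were not given, since that setting has no test. EIF3CL, a near-identical copy, had the largest SE (0.40) of the tested members with values given, and EIF1B, EIF2B3, EIF4EBP1, EIF5A2, EIF4EBP3 and EIF5AL1 had the fewest reads among them, 98 to 935 in all libraries together.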
